A study of Mus musculus with 17 samples.

Results

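The genes described here encode the main secreted and membrane-bound proteases that cut extracellular matrix, and the proteins that block them. They were the rows of the expression table named as matrix metalloproteinases (Mmp), as ADAMTS proteases (Adamts) or as tissue inhibitors of metalloproteinases (Timp), chosen by name alone. The rule gave 46 of the 38734 genes in the table: 23 Mmp, 19 Adamts and 4 Timp genes. Metalloproteinases are zinc enzymes made as inactive precursors. Mmp enzymes cut collagens, gelatin, laminin and proteoglycans, and Adamts enzymes process procollagens and cut large proteoglycans such as versican. The Timp proteins bind the active site and stop the enzyme, and fibroblasts are a known source of both proteases and inhibitors.

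RNA sequencing was done on 17 libraries of mouse cells, 1 for each combination of genotype and stage, to follow cells on the way from embryonic fibroblasts (MEF) to induced pluripotent stem cells (iPSC). The WT cells carried the labelled genotype miR-203 WT; OSKM, the KO cells miR-203 KO; OSKM, and the KI cells ColA1_miR203; Rosa26rtTA; OSKM, so that all groups shared the cassette for Oct4, Sox2, Klf4 and cMyc. By the labels, doxycycline at 1 µg/ml, given over about 2 weeks, was meant to turn on the cassette and, in KI cells, miR-203 as well. The stages were MEF, days 0, 4, 6 and 7, and iPSC, the last in WT and KO libraries. The labels carry the doxycycline tag on every library, the MEF libraries included, name Rosa26rtTA for KI cells alone, and do not say how many animals or cultures stood behind a library.

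Values were the authors' FPKM, fragments scaled to transcript length and to the size of the library; any further scaling between libraries is not stated. The miR-203 gene Mir203 was at 0 in every WT and KO library, and it was 569 in KI MEF, 185 at KI day 0, and 7903, 5863 and 5470.0 at KI days 4, 6 and 7. Some libraries stood apart. The WT libraries of MEF and day 4 had 46.9 and 48.0 FPKM of Xist against at most 3.23 in the other libraries, and the Y-linked Ddx3y was 0.0179, 2.74 and 1.51 in WT MEF, day 4 and iPSC against 14.5 to 20.0 in the other libraries. The KI libraries of days 4, 6 and 7 did not show pluripotency RNA: the sum of 8 pluripotency markers was 0.996 to 1.49 FPKM there, against 45.5 to 288 in WT and 285 to 1617 in KO libraries of those days. Pou5f1, the Oct4 gene of the cassette, was 0.851, 0.491 and 0.675 FPKM in KI at days 4, 6 and 7 against 266, 37.4 and 85.3 in WT, and Sox2, also of the cassette, was at most 0.167 in KI against 2.26 to 19.0 in WT on those days. Whether the cassette was active in these KI cells was not tested. Markers of fibroblasts were high at every stage before iPSC, with a sum of 11 genes of 5228 or more, and fell to 1056 in WT and 341 in KO iPSC, where the 8 pluripotency markers summed to 4223 and 4979.

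Of the 46 genes, 27 reached an FPKM of 5 in at least 1 library: 13 Mmp, 11 Adamts and 3 Timp genes. The inhibitors Timp1 and Timp2 and the proteases Mmp14, Mmp2 and Mmp3 had the highest levels. Timp1, which is secreted and binds many Mmp enzymes, ranged from 158 FPKM in KO iPSC to 1171 at KI day 7. Mmp14 is a membrane-anchored collagenase that also activates the Mmp2 precursor, and it ranged from 30.2 FPKM in KO iPSC to 471 at WT day 4. The other 19 genes stayed below 5 everywhere, and 10 of the 46 stayed below 1. Mmp20, the protease of developing tooth enamel, was listed at 0 in all 17 libraries. Mmp27 at up to 4.12 FPKM and Mmp17 at up to 4.47 FPKM came closest to the limit of 5 from below.

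**Figure D1:**
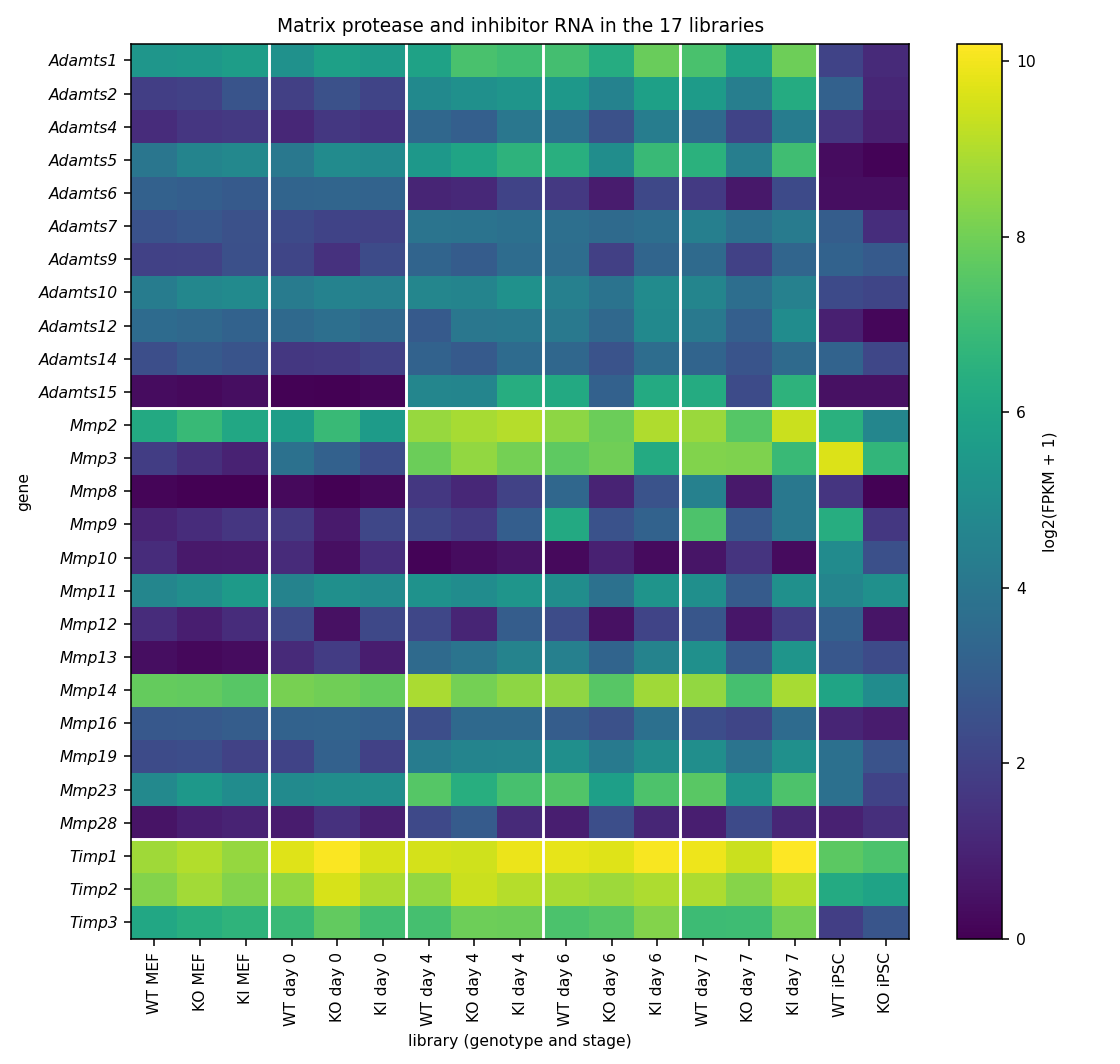
Level of the 27 genes that reached an FPKM of 5, as log2(FPKM + 1), with genes in rows and the 17 libraries in columns; white lines separate the families and the stages. The proteases Mmp2, Mmp3 and Adamts15 are brighter from day 4 on, Timp1 and Timp2 are bright at every stage before iPSC, and most rows are dark in the iPSC columns.

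Of the Mmp genes, 10 lie side by side on chromosome 9, at chr9:7272514-7699585 in GRCm38, a span of 427.1 kb that holds the collagenases Mmp13, Mmp1a, Mmp1b and Mmp8, the stromelysins Mmp3 and Mmp10, and Mmp12, Mmp27, Mmp20 and Mmp7. Only 5 of the 10 reached an FPKM of 5. RefSeq promoter windows of GRCm38.p6, searched over the 250 bases before the start, were at hand for 32 of the 46 genes. The motif TGANTCA, the letters bound by AP-1 factors such as Fos and Jun, was found on either strand in windows of 8 of the 10 cluster genes and of 0 of the 22 genes elsewhere. These were 22.9% of the 35 windows of the families, and among all 32851 windows 6.75% held it. The TATA box letters TATAAA were found, on either strand and never overlapping the AP-1 letters, in windows of 9 of the 32 genes (25.7% of their windows, against 12.4% of all windows). The promoters of Mmp3, Mmp13 and Mmp10, cluster genes with called changes, are shown with that of Adamts1, a gene with a called change that lies outside the cluster and has only the TATA letters. The call of Mmp10 and the day 4 call of Mmp13 lend no support, for the reasons given below. All promoters shown hold a motif, so they do not stand for the called genes as a set. Windows of the called genes Timp1, Timp2, Timp3, Mmp11, Mmp14, Mmp15, Mmp23 and Mmp28 held neither motif and are not shown. The same holds for Adamts2, Adamts9, Adamts12, Adamts14, Adamts17 and the cluster gene Mmp8. Each line gives the 120 bases before the start, 5′ to 3′ on the gene's strand, with both motifs in capitals. Mmp3 lies at chr9:7445702-7445821 on the plus strand, Mmp13 at chr9:7272394-7272513 on the plus strand, Mmp10 at chr9:7502222-7502341 on the plus strand and Adamts1 at chr16:85803114-85803233 on the minus strand.
Mmp3: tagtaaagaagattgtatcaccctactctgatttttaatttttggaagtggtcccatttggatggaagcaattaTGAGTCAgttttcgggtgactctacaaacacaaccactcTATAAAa
Mmp13: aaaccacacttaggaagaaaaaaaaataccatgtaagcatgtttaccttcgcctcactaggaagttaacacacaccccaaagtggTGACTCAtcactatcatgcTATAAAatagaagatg
Mmp10: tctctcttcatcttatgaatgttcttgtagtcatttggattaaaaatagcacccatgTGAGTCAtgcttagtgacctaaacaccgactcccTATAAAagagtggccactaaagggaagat
Adamts1: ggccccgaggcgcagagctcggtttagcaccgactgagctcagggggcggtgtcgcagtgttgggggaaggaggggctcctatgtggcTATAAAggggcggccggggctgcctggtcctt
The AP-1 letters begin 46 bases before the start in Mmp3, 35 in Mmp13 and 63 in Mmp10. A match of letters is a description of the sequence and says nothing of binding in these cells.

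Summed over each family, Mmp RNA was at a higher level at days 4 to 7 than in MEF and day 0 in every genotype, while the Timp sums of days 0 and 4 overlapped. The 23 Mmp genes summed to between 351 and 468 FPKM in the 6 libraries of MEF and day 0. At day 4 they summed to 1375 in WT, 1293 in KO and 1427 in KI. By day 7 the sums were 1580 in WT, 712 in KO and 1582 in KI, with KO the lowest. Timp genes summed to 1310.2, 2108 and 1370.1 FPKM at day 0 in WT, KO and KI, and to 1252, 1619 and 1730.1 at day 4. The ratio of summed Timp to summed Mmp FPKM was therefore 3.16 to 4.51 at day 0 and 0.91 to 1.25 at day 4. In iPSC it was 0.242 in WT and 1.01 in KO. Adamts genes summed to 101 to 145 FPKM in MEF and day 0, and at day 7 to 464 in WT, 148 in KO and 666 in KI. These sums are descriptions without a test, and FPKM counts RNA, not protein or activity.

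**Figure D2:**
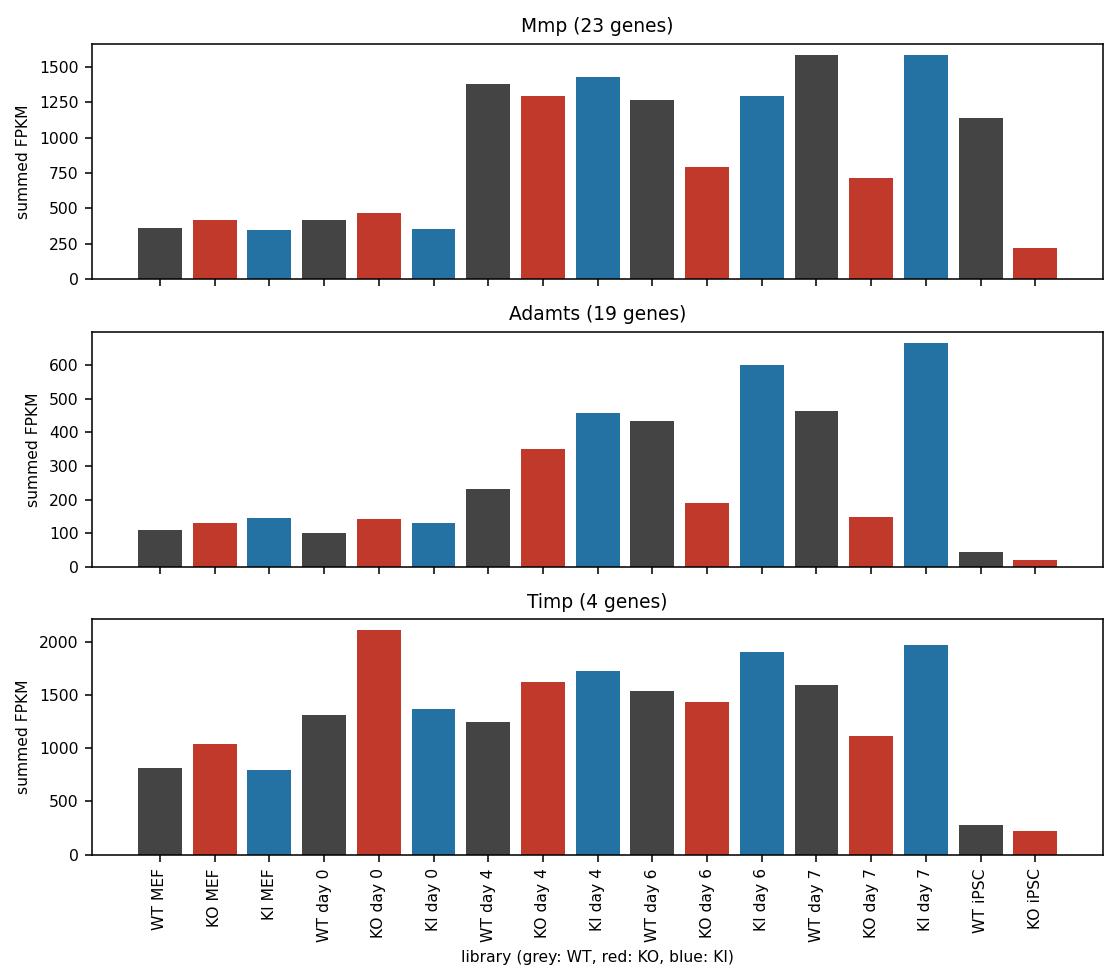
Summed FPKM of the 23 Mmp, 19 Adamts and 4 Timp genes in each of the 17 libraries, with 1 bar per library coloured by genotype. The Mmp bars are 351 to 468 in MEF and day 0 and 1266 to 1582 in WT and KI at days 4 to 7, while KO falls from 1293 at day 4 to 712 at day 7.

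From MEF to day 0, no gene of the families passed the test. Timp1 was 431, 522 and 383 FPKM in WT, KO and KI MEF and 823, 1135 and 761 at day 0. It was thus higher at day 0 in each genotype, by 1.01 ± 0.24 (SE) on the log2 scale, with a limma adjusted p of 0.452. Timp3, the inhibitor that binds to the matrix itself, was 68.2, 83.5 and 97.5 FPKM in MEF and 119, 216 and 137 at day 0. With limma, 0 of the 32 tested genes were called and 4 had an unadjusted p below 0.05 (0.0492% of all 14240 genes were called). Stage tests compared log2(FPKM + 1) in a model with stage and genotype over the 17 libraries, so that the genotypes served as the samples of a stage.

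Between day 0 and day 4 protease RNA rose across both families. With limma, 16 of 32 tested genes were called, 15 higher and 1 lower, while 22.3% of all genes were called (12.3% higher and 10.0% lower). The median log2 difference was 1.19 over the 32 genes and 0.01 over all genes tested. By family, 8 of 17 Mmp and 7 of 12 Adamts genes rose, and 0 of 3 Timp genes changed. Of the genes called higher, Adamts15, Adamts17, Mmp15 and Mmp1b were below 1 FPKM in every MEF and day 0 library. They passed the filter on a mean FPKM of 1 only through later libraries, so their values are a description and their calls lend no support. Mmp13 and Mmp28, at 0.166 to 2.56 and 0.458 to 1.73 FPKM in MEF and day 0, also passed it through later libraries. Their calls at this step likewise lend no support.

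The stromelysin Mmp3, which cuts proteoglycans and laminin and activates other Mmp precursors, had the largest change among the Mmp genes. It was 12.8, 7.91 and 4.34 FPKM in WT, KO and KI at day 0 and 237, 374 and 264 at day 4. No day 4 library came near a day 0 library. The log2 difference was 5.05 ± 0.55 (SE; limma, adjusted p = 0.000115). The collagenase Mmp13, which cuts fibrillar collagen, was 1.30, 2.56 and 0.770 FPKM at day 0 and 10.6, 14.2 and 22.3 at day 4. Its difference was 2.72 ± 0.53 on the log2 scale, and the groups did not overlap. Mmp1b, a rodent collagenase paralogue, rose by 1.54 ± 0.34 (log2) but reached at most 3.03 FPKM. Mmp1a and Mmp1b are close copies of each other, so reads may have been split between them, and Mmp1b shares 157 exon bases with Mmp12 on the other strand. The neutrophil collagenase Mmp8 was not called at this step (1.44 ± 0.62, adjusted p = 0.124).

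Mmp2, the gelatinase of fibroblasts, was 50.3, 118 and 47.7 FPKM at day 0 and 397, 470.1 and 537 at day 4. It rose by 2.80 ± 0.56 (log2), from a day 0 level that was highest in KO. Mmp23, an unusual membrane-tethered member, was 28.6, 31.0 and 31.6 FPKM at day 0 and 183, 84.1 and 149 at day 4. This was a rise of 2.08 ± 0.48 (log2) in which KO ended lowest. Mmp19, which cuts basement membrane proteins, was 3.18, 7.92 and 2.90 FPKM at day 0 and 18.5, 23.0 and 24.2 at day 4, a log2 difference of 2.11 ± 0.42. Mmp14 and the other gelatinase, Mmp9, were not called. Mmp14 was already 217 to 278 FPKM at day 0 and 270.4 to 471 at day 4. Mmp28 rose by 1.09 ± 0.35 and the membrane-type Mmp15 by 0.69 ± 0.19 (log2).

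Adamts15, which cuts versican and aggrecan, was close to 0 before day 4. It was 0.0331, 0 and 0.0868 FPKM at day 0 and 24.3, 24.2 and 81.2 at day 4 in WT, KO and KI. The KI library was the highest, and the log2 difference was 5.17 ± 0.81 (limma, adjusted p = 0.00114). Adamts2, a procollagen N-proteinase, was 2.82, 4.83 and 3.26 FPKM at day 0 and 27.3, 33.5 and 38.5 at day 4. It rose by 2.89 ± 0.46 (log2), without overlap. Its relative Adamts14, also a procollagen N-proteinase, rose by 1.46 ± 0.25 (log2), from 2.11 to 2.91 FPKM at day 0 to 6.38 to 11.0 FPKM at day 4. The aggrecanase Adamts4 rose by 2.09 ± 0.40, Adamts17 by 1.80 ± 0.38, Adamts7, which cuts cartilage oligomeric matrix protein, by 1.75 ± 0.28 and the versican-cutting Adamts9 by 1.32 ± 0.29, all on the log2 scale. Adamts6 moved the other way. It was 8.79, 9.13 and 8.41 FPKM at day 0 and 1.07, 1.29 and 3.11 at day 4, and it fell by 1.86 on the log2 scale (SE 0.34).

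The number of day 4 calls depended on which libraries entered the fit, for reasons that were not tested. Each gene called higher was higher at day 4 than at day 0 in every genotype. Without the WT libraries 4 genes were called, without the KI libraries 4, and without the KO libraries 18. Leaving out KI at days 4, 6 and 7 gave 11, and leaving out WT at MEF, day 4 and iPSC gave 14. Only Mmp3 and Adamts2 were called in each alternative.

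**Figure D3:**
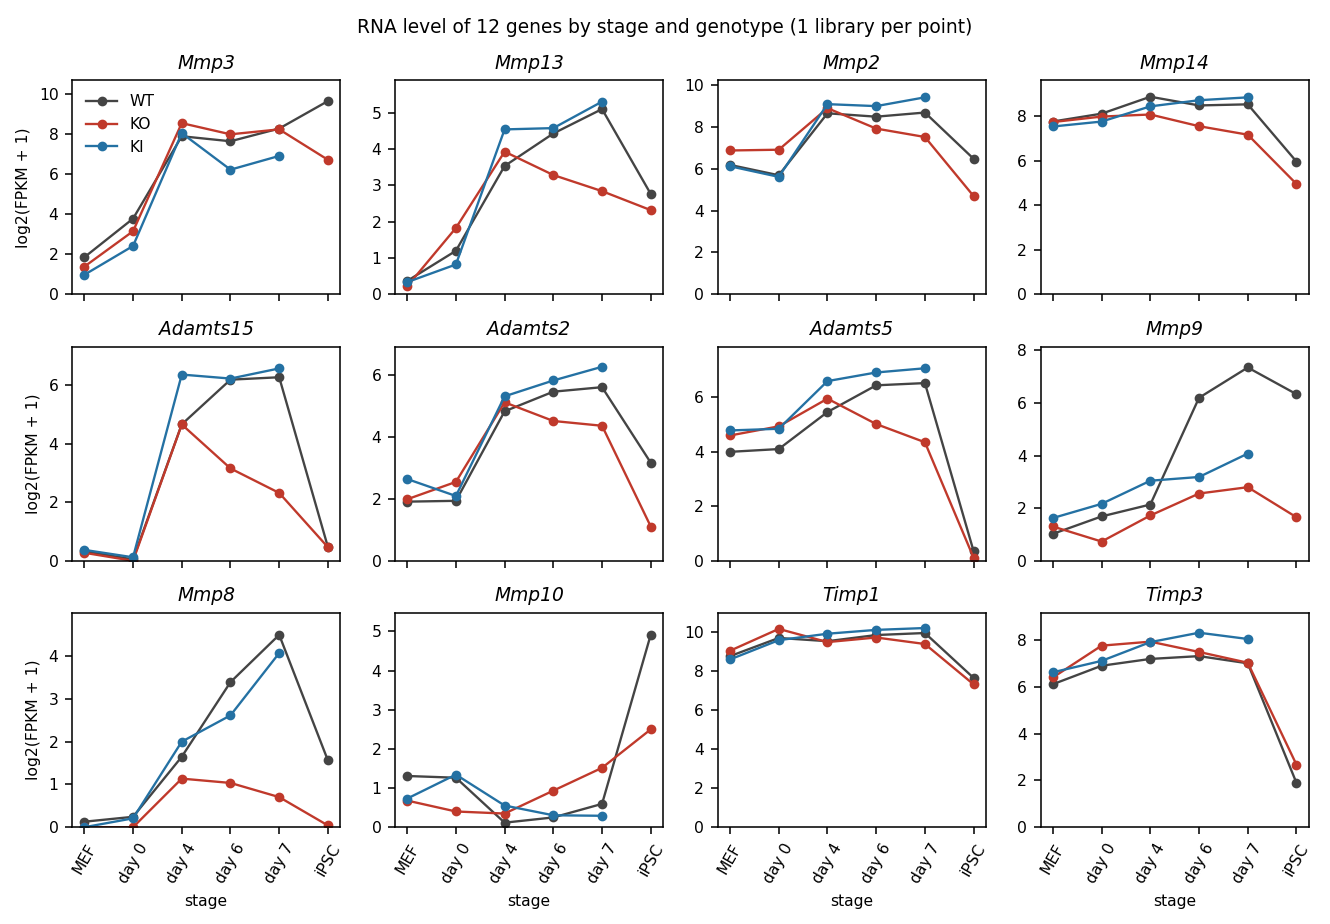
Level of 12 genes as log2(FPKM + 1) by stage, 1 point per library, with WT in grey, KO in red and KI in blue; there is no KI point at iPSC. Mmp3, Mmp13, Mmp2, Adamts15 and Adamts2 climb between day 0 and day 4 in each genotype, Mmp9 reaches 162 FPKM in WT at day 7 but 5.95 in KO, and Mmp10 is highest in the iPSC libraries.

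Genes that act beside these families moved in both directions at the same step. Of the plasminogen activation system, a serine protease cascade that activates several Mmp enzymes, 1 of 9 tested genes rose and 4 fell. The urokinase gene Plau fell by 2.41 and its receptor Plaur by 2.93, while Serpine2, an inhibitor of thrombin and urokinase, rose by 2.47 (log2). Of other matrix-acting proteases 5 of 20 rose and 3 fell, among them Htra3 (4.09) and the fibroblast activation protein gene Fap (2.22) upward and Tll1 (-2.03) downward. Of other inhibitors, activators and clearance receptors 6 of 15 rose and 3 fell. The broad protease inhibitor A2m rose by 4.68 and the membrane-anchored Mmp inhibitor Reck by 2.02, and Tfpi2 fell by 2.73 (log2). A2m was at most 0.107 FPKM in MEF and day 0 and passed the filter only through later libraries, so its call lends no support. Substrates of Adamts enzymes rose in 6 of 7 cases, with Col3a1 at 5.36 ± 0.65 and Col1a2 at 2.04 ± 0.57 (log2). Of the 11 fibroblast markers, some of which are the same collagen genes, 7 rose and 2 fell, and their sum was 14126 to 24176 FPKM at day 4 against 5228 to 6768 at day 0; their part in the protease result was not tested. In bulk RNA, fewer cells of a type and less RNA per cell cannot be told apart.

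From day 4 to day 7 no gene of the families was called: 0 of 32 with limma, with 3 at an unadjusted p below 0.05 (0.0211% of all genes were called). The genotypes went different ways here. WT day 4 is a library that stands apart in Xist and Ddx3y, so stage and library cannot be told apart in WT. Mmp13 went from 10.6 to 33.4 FPKM in WT and from 22.3 to 38.6 in KI, but from 14.2 to 6.18 in KO. Adamts5, an aggrecanase, went from 42.8 to 90.5 FPKM in WT and from 95.2 to 132 in KI, but from 60.5 to 19.3 in KO. Mmp9, the gelatinase of macrophages and osteoclasts, went from 3.41 to 162 FPKM in WT, from 2.30 to 5.95 in KO and from 7.25 to 15.9 in KI. The fitted difference of Mmp9 was 2.44 ± 0.97 on the log2 scale (limma, adjusted p = 0.611).

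In iPSC most of these genes were low. With limma, 19 of 32 tested genes were called between day 7 and iPSC, 18 lower and 1 higher, while 49.7% of all genes were called (24.1% lower and 25.6% higher). The median log2 difference was -1.67 over the 32 genes and 0.11 over all genes. All 3 tested Timp genes fell, with 8 of 12 Adamts and 7 of 17 Mmp genes.

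Timp3 was 128, 129.8 and 263 FPKM in WT, KO and KI at day 7 and 2.72 and 5.38 in WT and KO iPSC. It fell by 4.92 on the log2 scale (SE 0.30; limma, adjusted p = 7.62e-07). Timp1 was 981, 664 and 1171 FPKM at day 7 and 199 and 158 in iPSC, so it fell by 2.32 but remained the most abundant Timp. Timp2 fell by 2.69, from 324 to 538 FPKM at day 7 to 74.1 and 59.1 in iPSC. Levels in iPSC lay below every day 7 library for each of these inhibitors.

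Among the proteases, the aggrecanases of chromosome 16 fell most. Adamts5 was 90.5, 19.3 and 132 FPKM at day 7 and 0.276 and 0.0794 in iPSC, and it fell by 5.44 on the log2 scale (SE 0.60). Adamts1 was 153, 58.2 and 247 FPKM at day 7 and 3.19 and 1.30 in iPSC, and it fell by 5.18 (SE 0.54). These neighbours, at chr16:85856173-85901828 and chr16:85793827-85803113 in GRCm38, both cut aggrecan and versican. Adamts15, risen at day 4, fell by 4.21 to 0.387 and 0.379 FPKM. It passed the filter on low values only through days 4 to 7, so this call lends no support. Mmp23 fell by 3.73, Adamts12 by 3.33, Adamts2 by 3.07, Mmp2 by 2.86 and Mmp14 by 2.65 (log2). KI entered these fits at day 7 but had no iPSC library, so a fitted fall can exceed those within WT and KO. Within WT and KO the log2 differences ranged from -2.82 to -2.21 for Mmp2 and from -2.57 to -2.215 for Mmp14. The other called falls, in Mmp8, Adamts7, Adamts10, Adamts4, Mmp13, Mmp16 and Mmp19, were between 1.51 and 2.12. Mmp8 was at most 0.183 FPKM in MEF and day 0. It passed the filter through days 4 to 7, so its call lends no support. Adamts5 and Adamts12 were below 1 FPKM in both iPSC libraries. In MEF and day 0, however, they were at 14.9 to 29.5 and 8.34 to 12.3 FPKM.

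Mmp10, the second stromelysin, was the gene called higher. It passed the filter on low values only through the iPSC libraries, with a mean FPKM of 2.62 over the 17 libraries and 0.717 over the 15 before iPSC, so its values are a description and its call lends no support. It was 0.511, 1.86 and 0.224 FPKM in WT, KO and KI at day 7 and 29.2 and 4.65 in WT and KO iPSC, a log2 difference of 2.87 ± 0.62 (limma, adjusted p = 0.00333). Both iPSC libraries were above all 15 earlier libraries. The call needed WT: without the WT libraries the difference was 1.53 (adjusted p = 0.173, the highest of a range from 0.000644 over the alternatives), and 12 genes were called in all, each lower. Leaving out WT at MEF, day 4 and iPSC gave 15, each lower, and Mmp10 then missed the filter on low values. Calls of 11 genes held in each alternative in which the gene was tested: Timp1, Timp2, Timp3, Mmp14, Mmp23, Adamts1, Adamts2, Adamts5, Adamts7, Adamts10 and Adamts12. Among the other lists, 15 of 20 other matrix-acting proteases, 11 of 15 other inhibitors and 6 of 7 substrates fell, led by Col3a1 (-7.67 on the log2 scale), and the dipeptidyl peptidase Dpp4 rose by 2.56. All 11 fibroblast markers fell as well, and their part in the result was not tested.

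**Figure D4:**
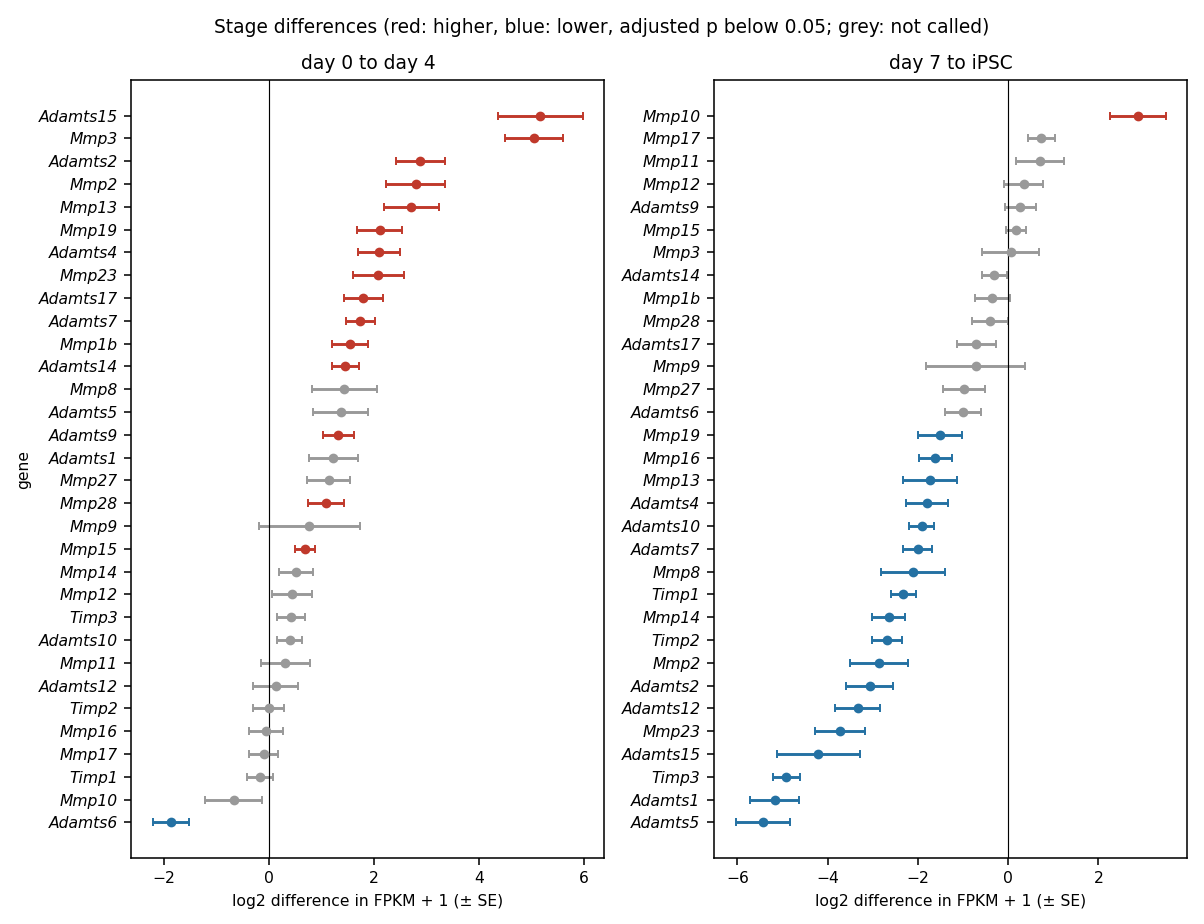
Log2 difference in FPKM + 1 of the 32 tested genes between day 0 and day 4 (left) and between day 7 and iPSC (right), as estimates with standard errors from the limma fit over 17 libraries; red marks genes called higher, blue called lower and grey not called. On the left 15 genes are red and 1 is blue, and on the right 1 is red and 18 are blue.

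The 2 iPSC libraries differed from each other. Mmp3 was 804 FPKM in WT iPSC, its highest level in any library, and 104 in KO iPSC. Mmp9 was 79.6 in WT and 2.15 in KO, and Mmp12, the macrophage elastase, 7.69 and 0.478. Mmp2 was 87.4 FPKM in WT and 24.8 in KO. Of the 17 genes of the families with an FPKM of 5 in either library, 11 were lower in KO by at least 1 on the log2 scale and 0 were higher (5.24% of all such genes were lower and 3.9% higher). Mmp11, which is made by stroma around epithelia and is cut inside the cell by furin, was 24.1 in WT and 33.4 FPKM in KO. Fibroblast markers summed to 1056 FPKM in WT iPSC and 341 in KO iPSC, and 14 macrophage markers to 337 and 126. With 1 library each there is no replicate check, and WT iPSC is a library that stands apart in Ddx3y, so genotype and library cannot be told apart here.

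More of these genes were lower in KO than in WT by at least 1 on the log2 scale at days 6 and 7 than at days 0 and 4. At day 0, 3 of 15 genes with an FPKM of 5 were higher in KO than in WT by at least 1 on the log2 scale (3.52% of all genes): Mmp2, Mmp19 and Timp2. At day 4, of 22 such genes 3 were higher (5.47%) and 1 was lower (5.36%) in KO. At day 6, 9 of 23 were lower (7.26% of all genes) and 0 higher (17.5%). At day 7, 16 of 23 were lower (9.42%) and 0 higher (21.8%). In KI against WT, 6 of 23 were higher (7.67%) and 0 lower (19.9%) at day 4, 1 was higher (2.8%) and 2 were lower (4.95%) at day 6, and 2 of 24 were higher (2.47%) and 2 lower (6.97%) at day 7. Of the 27 genes described, KO was lower than both WT and KI in 12 at day 4, 23 at day 6 and 23 at day 7, against 16.2, 25.8 and 23.8% of the 13086 genes of the table that reach an FPKM of 5 in some library. The median KO minus WT difference of these genes was 0.15, -0.89 and -1.17 (log2) on those days, against -0.06, 0.27 and 0.37 over all genes with an FPKM of 5. These are differences between single libraries, without a test. The WT library of day 4 stands apart in Xist and Ddx3y. A shift of the differences from WT after day 4 therefore cannot be told apart from a change of WT library.

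**Figure D5:**
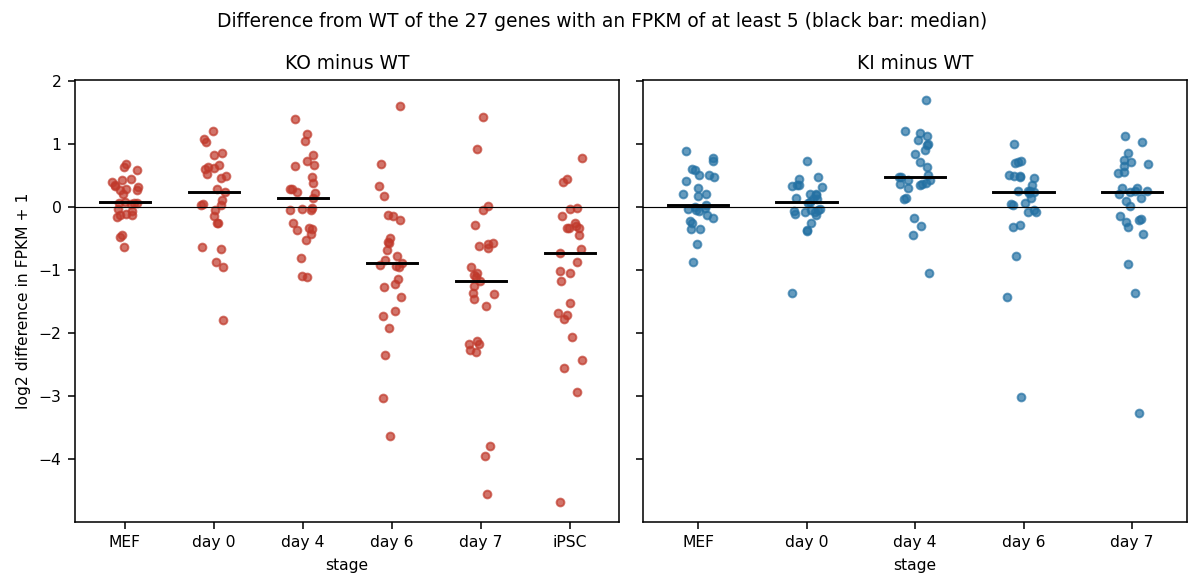
Difference from WT, in log2(FPKM + 1), of the 27 genes that reached an FPKM of 5, with 1 point per gene and stage, for KO (left) and KI (right); black bars are medians. The KO median moves from 0.15 at day 4 to -0.89 at day 6 and -1.17 at day 7, and the lowest KO points of days 6 and 7 are Mmp9.

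Over days 4, 6 and 7 together, several proteases were lower in KO than in WT, and no inhibitor was called. With limma over the 15 libraries before iPSC, 12 of 31 tested genes were called, 11 lower and 1 higher, while 14.7% of all genes were called (5.23% lower and 9.5% higher). The median difference was -0.61 over the 31 genes and 0.17 over all genes, on the log2 scale. Lower genes were 7 of 16 Mmp and 4 of 12 Adamts genes, and 0 of 3 Timp genes were called. Days stood in for samples in this test, so its spread is that between days and not between cultures.

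Mmp9 was 3.41, 72.3 and 162 FPKM in WT at days 4, 6 and 7, and 2.30, 4.89 and 5.95 in KO. The log2 difference was -2.87 ± 0.78 (limma, adjusted p = 0.0457), and the gap was wide on days 6 and 7 alone. Mmp8 was 2.13, 9.45 and 21.5 FPKM in WT and 1.19, 1.05 and 0.628 in KO, a log2 difference of -2.22 ± 0.53. Mmp12 was 3.50, 4.23 and 5.62 FPKM in WT and 1.11, 0.392 and 0.521 in KO, a log2 difference of -1.71 ± 0.36. For Mmp12 KO was also the lowest library of MEF (0.805 FPKM) and of day 0 (0.380 FPKM). Before iPSC, KO reached at most 1.19 FPKM of Mmp8 and 1.11 of Mmp12. Both genes thus passed the filter on low values through the WT and KI libraries, and their calls lend no support.

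These proteases are known from macrophages, osteoclasts and neutrophils, and of the markers of these cells mainly those of macrophages were called lower in KO. All 14 macrophage marker genes were found. In KO their sum was 10.0 to 124 FPKM from MEF to day 7, while it was 130.0 to 4274 in WT libraries and 45.9 to 2269 in KI libraries; C1qc and Fcer1g were at 0 in KO at day 0. Of 13 tested macrophage markers 12 were called lower in KO at days 4, 6 and 7, against 0 of 2 tested osteoclast markers and 1 of 2 tested neutrophil markers (Camp, -0.76 on the log2 scale). Markers that are low in KO can have passed the filter through the WT and KI libraries, so this count is a description and lends no support. The 2 osteoclast markers were also lower in KO and just missed the call. Acp5 differed by -2.18 (limma, adjusted p = 0.052) and Atp6v0d2 by -1.745 (limma, adjusted p = 0.0557) on the log2 scale. The sum of 6 osteoclast markers was 38.7 and 95.3 FPKM in WT at days 6 and 7, where Acp5 was 32.1 and 81.2, and at most 8.38 in the other 15 libraries. Mmp9 was 72.3 and 162 FPKM in those libraries. In KI at day 7, with macrophage markers at 2208 FPKM and osteoclast markers at 5.57, Mmp8 was 15.7 and Mmp9 15.9 FPKM. The 9 neutrophil markers summed to at most 12.6 FPKM in any library, and Elane was at 0 in 16 of 17. The part of these cells in the differences was not tested.

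Adamts15 was 24.3, 71.9 and 76.1 FPKM in WT, 24.2, 7.91 and 3.99 in KO and 81.2, 73.8 and 94.1 in KI. WT and KO were alike at day 4 and far apart afterwards, and the fitted KO minus WT difference was -2.33 ± 0.61 (log2; limma, adjusted p = 0.0418). Mmp23 was 183, 169 and 192 FPKM in WT and 84.1, 53.5 and 38.3 in KO, lower on each day, with a difference of -1.68 ± 0.24. Mmp14 was 471, 359 and 371 FPKM in WT and 270.4, 188 and 144 in KO, a difference of -1.03 ± 0.22. Mmp11 (-1.21 ± 0.34), Adamts9 (-1.21 ± 0.25), Adamts4 (-1.02 ± 0.22), the GPI-anchored Mmp17 (-0.78 ± 0.19) and Adamts14 (-0.57 ± 0.13) were also lower in KO, all on the log2 scale. Mmp28, which is known from skin and other epithelia, was the gene that was higher. It was 3.77, 0.794 and 0.787 FPKM in WT and 6.58, 4.47 and 3.82 in KO, with KI at 1.32, 1.13 and 1.15, and the KO minus WT difference was 1.24 ± 0.28.

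Markers of other cells also differed in level. Fibroblast markers summed to 16631, 24746 and 22773 FPKM in WT at days 4, 6 and 7, whereas KO had 14126, 9165 and 5750 and KI had 24176, 26121 and 28214. Of 11 fibroblast markers 2, Col1a1 and Col1a2, were called lower in KO. Epithelial markers, 8 genes with Cdh1 and Epcam among them, summed to 117, 18.3 and 55.8 FPKM in WT, whereas KO had 72.2, 542 and 1291 and KI at most 0.620. Of 6 tested epithelial markers 1, Cdh1, was called higher in KO (2.87 ± 0.70 on the log2 scale). The part of these cells in the KO result was not tested. Timp1 was 734, 913 and 981 FPKM in WT and 711, 836 and 664 in KO (log2 difference -0.25 ± 0.13, adjusted p = 0.231). Timp3 was 145, 158 and 128 in WT and 243, 179 and 129.8 in KO, a difference of 0.31 ± 0.22 (adjusted p = 0.348).

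The KO calls depended on which days entered the fit. Without MEF, without day 0, without day 6 or without day 7, 0 genes were called, and without day 4 there were 22, of which 21 were lower. Leaving out WT at MEF and day 4 gave 16, of which 15 were lower. All these fits kept the direction of each named difference. Among the genes beside the families, the macrophage cathepsin Ctss was lower in KO by 5.43 on the log2 scale, at 26.0, 74.0 and 94.1 FPKM in WT and 0.106, 0.447 and 0.496 in KO. Before iPSC, KO reached at most 0.801 FPKM of Ctss, so it passed the filter through the WT and KI libraries and its call lends no support. A2m, Adam8 and Pcsk5 differed by -3.30, -2.90 and -2.17, and Pcolce2 and Plaur were higher in KO, by 1.96 and 1.60 (log2). The test of whether the KO minus WT difference changed between the early stages (MEF and day 0) and the late ones called 0 of 31 genes with limma, with 12 at an unadjusted p below 0.05 (0.0795% of all genes were called). It called 22 without day 4, 20 of them lower, and 1 when WT at MEF and day 4 was left out.

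In KI, with miR-203 switched on, 0 of 31 genes were called against WT at days 4, 6 and 7 with limma, and 9 had an unadjusted p below 0.05 (2.44% of all genes were called). KO and KI were compared with the same WT libraries. The median difference was 0.30 over the 31 genes and -0.16 over all genes (log2). Timp3 was 239.9, 317 and 263 FPKM in KI at days 4, 6 and 7 against 145, 158 and 128 in WT, a difference of 0.92 ± 0.22 (adjusted p = 0.0742). Mmp3 was 264, 74.0 and 119.6 FPKM in KI and 237, 199 and 310.1 in WT, higher than WT at day 4 and lower afterwards (-0.88 ± 0.29, adjusted p = 0.135). Without day 4, 8 genes were called, 6 higher and 2 lower, and when WT at MEF and day 4 was left out, 1 was called lower. The difference between late and early stages called 0 of 31 genes, with 1 at an unadjusted p below 0.05 (0.0723% of all genes were called), and 1 without day 4. Beside the families Adam19, a membrane protease, was higher in KI by 1.18 (log2).

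As the study changed miR-203, its seed match was looked for in the families. The mature miR-203-3p of RefSeq (GRCm38.p6, chr12:112130927-112130948, plus strand) is shown with its seed, bases 2 to 8, in capitals. Below it are sites from the longest annotated 3′ untranslated region of the 4 genes that hold the match and passed the filter on low values, 5′ to 3′ on the gene's strand, with the complement of the seed in capitals. They lie at chr9:30899762-30899790 on the minus strand (Adamts15), chr6:92773941-92773969 on the minus strand (Adamts9), chr13:104493719-104493747 on the plus strand (Adamts6, the first of 3 sites) and chr9:7359198-7359226 on the plus strand (Mmp12, the first of 2 sites), in GRCm38 with the GENCODE M21 annotation.
miR-203-3p: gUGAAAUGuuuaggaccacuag
Adamts15: gttttacaagtCATTTCAaggagggatgg
Adamts9: atggtctcaagCATTTCAatgagggatac
Adamts6: gagagtcctgtCATTTCAtcgtggaaatg
Mmp12: gttgtgtggctCATTTCAcatcagaaagt
The match CATTTCA was in 7 of the 46 genes (15.2%), with no filter on FPKM. Of the 32 that average an FPKM of 1 or more, 4 held it. Among all 12225 genes with an annotated region and such an average, 17.2% held it. The other 3 of the 7 were Adamts8, Adamts18 and Mmp20, which stayed at or below 1.26 FPKM. A match is a description and no evidence of targeting. At days 4, 6 and 7, Adamts15 differed by -2.33 in KO and 0.68 in KI from WT on the log2 scale, and Adamts6 by -0.62 and 0.69. Adamts9 differed by -1.21 and -0.07, and Mmp12 by -1.71 and -0.11. As 0 of 31 family genes were called in KI in either direction, the calls in KI cannot speak to these 4 genes.

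Among the other genes of the families, Adamts10, which acts on fibrillin microfibrils, was 18.0 to 28.5 FPKM in MEF and day 0 and 11.8 to 34.3 at days 4 to 7. Adamts12 was 8.34 to 12.3 FPKM in MEF and day 0 and 6.48 to 30.5 at days 4 to 7. Adamts7 was 3.08 to 5.90 FPKM in MEF and day 0 and 10.4 to 20.4 at days 4 to 7. The membrane-type Mmp16 was 6.00 to 8.47 FPKM in MEF and day 0, and 3.40 at KO day 7 against 10.8 at KI day 7. Of the 19 genes below 5 FPKM, Adamts17 and Mmp1b were highest at KI day 4 (3.31 and 3.03 FPKM), Adamts16 at KI day 7 (2.81) and Mmp1a in WT iPSC (2.30). Timp4, the inhibitor known from heart and brain, was at most 0.127 FPKM and was at 0 in 9 libraries.

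Some values may hold reads of a neighbour. Exons overlapped a gene on the other strand by 1733 bases for Timp3 (Syn3), 1381 for Adamts9 (A730049H05Rik), 789 for Mmp19 (Tmem198b), 466 for Mmp28 (1700020L24Rik), 155 for Mmp11 (Chchd10) and 122 for Adamts7 (Tbc1d2b). The kit kept the strand, and the sources used here do not say whether the counting used it.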

How the data were processed

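Strand-specific polyadenylated RNA libraries of mouse cells, 1 per genotype and stage, gave 17 columns of values. Cufflinks 2.2.1, TopHat2 2.0.10, Bowtie 1.0.0, FastQC and SAMtools 0.1.16 are named with GRCm38 (mm10) per the submitters' processing notes. The authors deposited 1 FPKM value per gene and library. The sources used here do not give the annotation version, scaling between libraries or read depth, and no counting interval was computed. Relative depth, read from the smallest values, was 0.927 to 1.04 of WT MEF, but only 4.58 to 13.4% of the gene ratios fell near (± 0.05) that value, so this estimate is weak. The sum of FPKM was 510501 to 690770 per library.

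Lines that repeated an identifier were summed. Positions came from GENCODE M21, which matched all 46 family genes, and promoters and the miRNA from RefSeq (GRCm38.p6). Genes that averaged an FPKM of 1 or more in the libraries fitted were tested (14240 genes for 17 libraries, 13837 for 15) as log2(FPKM + 1) with limma 3.58.1 in R 4.3.3 (variance trend, 2-sided, Benjamini-Hochberg over all genes tested), and a gene was called at an adjusted p below 0.05. The pseudocount of 1 understates changes of low genes. The filter kept 32 and 31 of the 46. Stage tests used stage and genotype as terms. Genotype tests used stage, genotype and genotype by period (early: MEF and day 0; late: days 4, 6 and 7). No genotype and stage had a second library, and p-values measure only the spread between these libraries.

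Genes reaching an FPKM of 5 are described; in each comparison up to 10 called genes each way were named by size, and the remaining called ones were added after their values were seen. The family members and gene lists were chosen with earlier results of these data known. Alternatives were the pseudocount, the filter, scaling, the variance trend, the genotype term and left-out libraries. Some results on neighbouring and related genes are not reported here.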

Additional observations from a re-analysis of the deposited data

How the results depend on the processing

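Counts of called family genes moved by over 1.5 times mainly when libraries were left out. Leaving out 1 genotype gave 4 to 18 genes between day 0 and day 4 (main 16) and 12 to 21 between day 7 and iPSC (main 19). Leaving out 1 stage gave 0 to 22 for KO minus WT at days 4, 6 and 7 (main 12), 0 to 8 for KI minus WT (main 0), 0 to 22 for the change of the KO difference (main 0) and 0 to 1 for that of the KI difference (main 0). With no filter on low values KO minus WT gave 7. Without the WT libraries of MEF and day 4, chosen after seeing the data, KI minus WT gave 1 and the change of the KO difference 1. Among the named genes, 433 values kept direction and call, 114 kept direction only and 0 reversed. Quantile or upper-quartile scaling reversed none of these. The cause of each shift was not tested, beyond the smaller number of libraries. No paired analysis was possible because the labels give no replicate numbers, beyond the genotype and stage terms by which the fits already compare stages within genotypes and genotypes within stages. Between day 7 and iPSC only WT and KO could be compared in this way, as KI had no iPSC library. Depth is unknown, so changes of genes below 1 FPKM are not resolved, and the single libraries leave culture-to-culture spread unmeasured.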
